A study of Brassica juncea with 9 samples.

Results

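Leaf RNA of *Brassica juncea* was measured with 43603 array probes. Of these, 65 gave a signal that was lower in salt-treated than in unstressed plants and lower again with bicarbonate added to the salt. They were chosen from the measured values. A probe had to be well above background on all 3 control and all 3 salt arrays, which held for 15310 eligible probes. In the deposited log2 values, the control mean had to exceed the salt mean by at least 0.5 and the salt mean had to exceed the alkaline salt mean by at least 0.5. The lowest control array had to lie above the highest salt array, and the lowest salt array above the highest alkaline salt array. The order of the groups is thus set by the choice of probes, so levels and steps of the 65 probes are given as a description, and no test of them is made.

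The plants were of genotype NDR8501 and were raised hydroponically in a nutrient solution of pH 6.0 before treatment. Control plants stayed without added salt, salt plants received 50 mM NaCl, and alkaline salt plants received 50 mM NaCl in a solution buffered with 2.5 mM bicarbonate (HCO3-), each for 4 weeks. There were 3 plants per group, each labelled a biological replicate, with 1 array per plant and the leaf sampled at a plant age of 5 weeks. All groups share 1 genotype, 1 organ and 1 sampling time.

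*Brassica juncea*, Indian mustard, is an oilseed and vegetable crop that carries the genomes of *Brassica rapa* and *Brassica nigra*, so many of its genes exist in closely related copies that a single probe may not tell apart. Sodium chloride slows growth first by lowering the water potential around the roots and later through sodium and chloride that build up in older leaves. Bicarbonate raises and buffers the pH of the root solution, and alkaline solutions are known to make iron and some other nutrients harder for plants to take up. A lower signal in a leaf can come from fewer cells of a type as well as from less RNA per cell, and these cannot be told apart here.

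The files pair each probe with a transcript identifier but with no gene name, description or sequence, so no function is given to any probe. Whether the probe sequences come from *Brassica juncea*, and how well they match its RNA, was not examined. The 65 probes belong to 64 transcript identifiers. Only 1 identifier, TA19861_3708, is represented by 2 of the 65 probes. By type of identifier, 35 probes carry a single sequence accession, 18 a TA assembly name and 12 a TC contig name, or 53.8%, 27.7% and 18.5%. Among all eligible probes these shares were 62.4%, 23.6% and 13.96%.

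Between 16799 and 22063 probes were well above background on an array, and the 75th percentile of spot intensity ran from 417 to 1751, both ends among the salt arrays. Below, a scaled log2 signal is the log2 processed intensity minus that array's own 75th percentile, so that 0 marks the 75th percentile and 1 unit is a 2-fold difference. Differences are fitted group differences on this scale, with the standard error (SE) from limma. Signal strength depends on the probe as well as on the transcript, so levels are compared within a probe and not between probes.

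Each condition of the choice, applied to the deposited log2 values, removed many probes. The salt mean lay at least 0.5 below the control mean for 932 eligible probes, or 6.09%, and the arrays of these groups were also apart for 391. The alkaline salt mean lay at least 0.5 below the salt mean for 3497 probes, or 22.8%, and the arrays were also apart for 2651. Both steps were at least 0.5 for 217 probes, of which 65 had no overlap between neighbouring groups. With the same limits, 36 probes were higher at both steps, 114 were lower in salt and then higher in alkaline salt, and 110 were higher in salt and then lower in alkaline salt. All these orders use the same salt arrays in both steps, and their counts were not tested against each other. Only control and salt arrays had to be well above background, so a fall could end at background while a rise could not start there. The 65 and the 36 are thus not a like comparison. Of the 65, 50 were also above background on all 3 alkaline salt arrays.

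**Figure D1:**
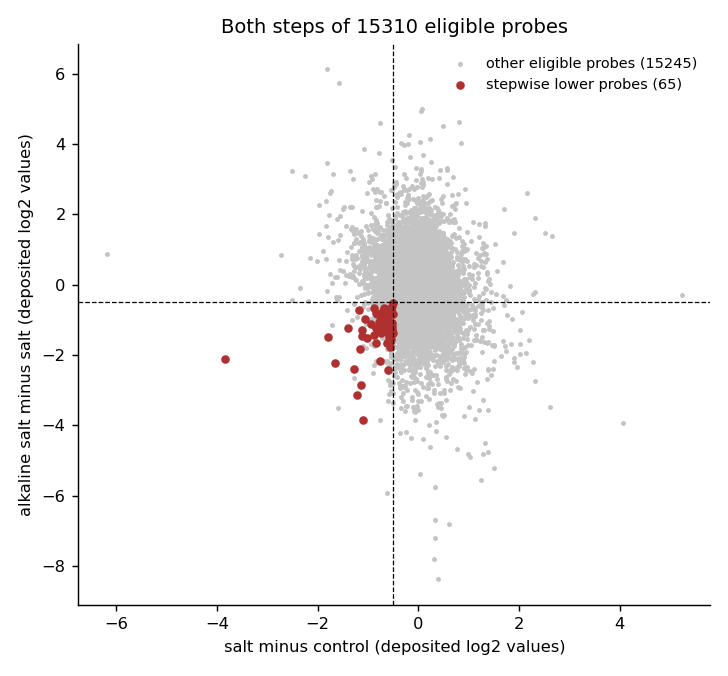
Each point is 1 of 15310 eligible probes, with salt minus control on the x axis and alkaline salt minus salt on the y axis, both in deposited log2 values. Dashed lines mark the limits of −0.5, and the 65 chosen probes in red fill the lower left corner, with other probes there whose groups overlap.

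Across the 65 probes, the step from control to salt was the smaller one for most on the scaled signal. The median log2 difference was −0.71 from control to salt, a 1.64-fold lower signal, with an interquartile range of −0.90 to −0.61 and a full range of −3.88 to −0.50. From salt to alkaline salt the median was −1.14, a 2.21-fold lower signal, with an interquartile range of −1.46 to −0.89. Over all 17798 tested probes the medians were −0.04 and 0.00. The alkaline step was larger than the salt step for 55 probes and smaller for 10, and the salt step made up a median of 40.9% of the whole difference between control and alkaline salt plants, with fitted values at background taken as they stand. The choice cut both steps at 0.5 in deposited values. Of all eligible probes, 22.8% reached that limit at the alkaline step and 6.09% at the salt step. The split between the steps is thus not read as particular to the 65. The alkaline step also depended on how background was handled. With another background correction, normexp, its median was smaller in size, as given in the closing sections.

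The whole difference had a median of −1.90, or 3.74-fold lower in alkaline salt than in control plants, and was at least 4-fold for 27 of the 65 probes. Both steps were at least 2-fold for 12 probes, the alkaline step alone for 31, the salt step alone for 2 and neither for 20. These counts and medians were the same when the 4 probes without a measured alkaline salt signal were set to their bounds, given further on.

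The probes were placed in a fit to the 17798 probes for which at least 1 group had all 3 arrays well above background, with limma and Benjamini-Hochberg adjustment over those probes. From control to salt, 0.0225% of tested probes were called lower at an adjusted p under 0.05, and 1 of the 65 was among them. From salt to alkaline salt, 7.24% of tested probes and 43 of the 65 were called lower. Of the 65, this count was 9 with median scaling, 12 without a filter on dim probes, 20 without salt replicate 1, 18 without salt replicate 3 and 17 without alkaline salt replicate 3. From control to alkaline salt, 9.86% of tested probes and all 65 were called lower. The choice of the 65 used these same contrasts, so nothing is read from the counts beside their backgrounds. For 64 of the 65 probes the first step therefore rests on 3 arrays per group that do not overlap and not on a call.

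On the scaled signal, which was not used for the choice, the means of all 65 probes kept the order control, salt, alkaline salt. Control and salt arrays were apart for 61 of the 65, against 6.2% of tested probes that were apart in this direction. Salt and alkaline salt arrays were apart for 63, against 19.0% of tested probes. These values come from the same spots as the deposited ones and are no separate support. All conditions of the choice were met on this scale by 58 of the 65. Far fewer of the 65 met them with median scaling or with normexp background correction, as given in the closing sections.

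The probe with the widest salt step was A_46_P153170 (transcript TA26637_3708), the only 1 of the 65 called lower in salt. That call was lost with the replicate number, which is also the slide, as a fixed block (0 probes called), without a filter on dim probes, with the percentile over detected probes, when only the 2 groups were fitted, and without any single array other than control replicate 3 or salt replicate 2. Its scaled log2 signal was 3.56, 4.18 and 2.73 in control plants 1 to 3, −0.84, 0.06 and −0.41 in salt plants and −3.05, −2.45 and −1.87 in alkaline salt plants. Every control plant lay at least 2.67 above every salt plant, and the salt plants at least 1.03 above the alkaline salt plants. The difference was −3.88 (SE 0.43, n = 3 per group) from control to salt, or 14.8-fold lower, and −2.06 (SE 0.43) from salt to alkaline salt. Only 1 alkaline salt array, replicate 3, was well above background for it, and the size of the second step depends on background-level signals in the other 2. With normexp background correction of the median spot signals, the steps were −3.14 and −0.75.

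The transcript identifier TA19861_3708 carried the second widest salt step, and both of its probes on the array were among the 65. Probe A_46_P261573 gave 4.40, 4.68 and 3.60 in control plants 1 to 3, 2.19, 2.48 and 2.46 in salt plants and 1.45, 0.28 and 1.02 in alkaline salt plants. Probe A_46_P132104 gave 5.85, 6.02 and 5.19 in control plants, 4.30, 4.18 and 4.20 in salt plants and 3.56, 2.41 and 3.05 in alkaline salt plants. In both probes control replicate 3 was the lowest control plant and alkaline salt replicate 2 the lowest of all 9 plants, and no groups overlapped.

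The salt step of TA19861_3708 was −1.85 (SE 0.36) by the first probe and −1.46 (SE 0.32) by the second, 3.61-fold and 2.75-fold lower. The alkaline step was −1.46 (SE 0.36) and −1.22 (SE 0.32). In alkaline salt plants the signal was thus 9.92-fold and 6.41-fold lower than in controls. Both probes were above background on all 9 arrays, and their salt steps were among the 10 of the 65 that were larger than the alkaline step.

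Wide alkaline steps were seen in A_46_P379378 (TC108783) and A_46_P260878 (TA20230_3708), which ranked first and second on the scaled signal among probes above background on at least 1 array of every group. With normexp their order was reversed, and in the deposited values A_46_P007431 (EV216629), with a step of 2.22, lay above A_46_P260878, with 2.16. A_46_P379378 was at 0.79, 0.89 and 0.49 in control plants 1 to 3, −0.10, 0.23 and 0.18 in salt plants, and −2.82, −2.30 and −1.77 in alkaline salt plants. Control and salt plants lay close together and the alkaline salt plants far below, with steps of −0.62 and −2.40 (SE 0.27 each). Only alkaline salt replicate 3 was well above background, so the size and rank of the second step depend on background-level signals in the other 2. With normexp its steps were −0.38 and −1.10.

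A_46_P260878 was above background on all 9 arrays. Its signal was 2.58, 3.03 and 2.14 in control plants, 1.67, 1.85 and 1.82 in salt plants, and −1.46, 0.31 and 0.02 in alkaline salt plants. Alkaline salt replicate 1 stood below the other alkaline salt plants, whose signals were already lower than in any salt plant. The steps were −0.80 and −2.16 (SE 0.44 each), or 1.75-fold and 4.46-fold lower, and the second was −1.49 with normexp.

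Even steps were seen in A_46_P143969 (EV169672) and A_46_P342155 (TC92546), the probes closest to equal steps among those above background on all 9 arrays and at least 4-fold lower in alkaline salt than in control plants. A_46_P143969 gave 1.42, 2.55 and 0.97 in control plants 1 to 3, 0.31, 0.50 and 0.68 in salt plants and −1.07, −0.36 and −0.83 in alkaline salt plants. Its steps were −1.15 and −1.25 (SE 0.39 each), and −0.89 and −0.71 with normexp. The control plants were spread over a wider range than the gap to the salt plants, and without control replicate 2 the salt step was −0.70. The other probe of EV169672 was above background on no array.

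A_46_P342155 showed less spread, at 3.31, 3.32 and 2.79 in control plants, 2.32, 1.85 and 2.33 in salt plants and 1.26, 1.01 and 0.95 in alkaline salt plants. Its steps of −0.98 and −1.09 (SE 0.22 each) made the signal 1.97-fold and then 2.13-fold lower. The group means were separated by more than 3 times the SD of any group, with 3.14 ± 0.31 (SD, n = 3) for control, 2.17 ± 0.27 for salt and 1.07 ± 0.16 for alkaline salt.

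A_46_P244144 (TA24998_3708) was above background on all 9 arrays, at 5.67, 5.63 and 5.25 in control plants, 5.21, 4.58 and 4.94 in salt plants and 4.03, 3.95 and 3.45 in alkaline salt plants. The lowest control plant and the highest salt plant differed by only 0.03, while the salt and alkaline salt plants were 0.55 apart. Its steps were −0.61 and −1.10 (SE 0.24 each).

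**Figure D2:**
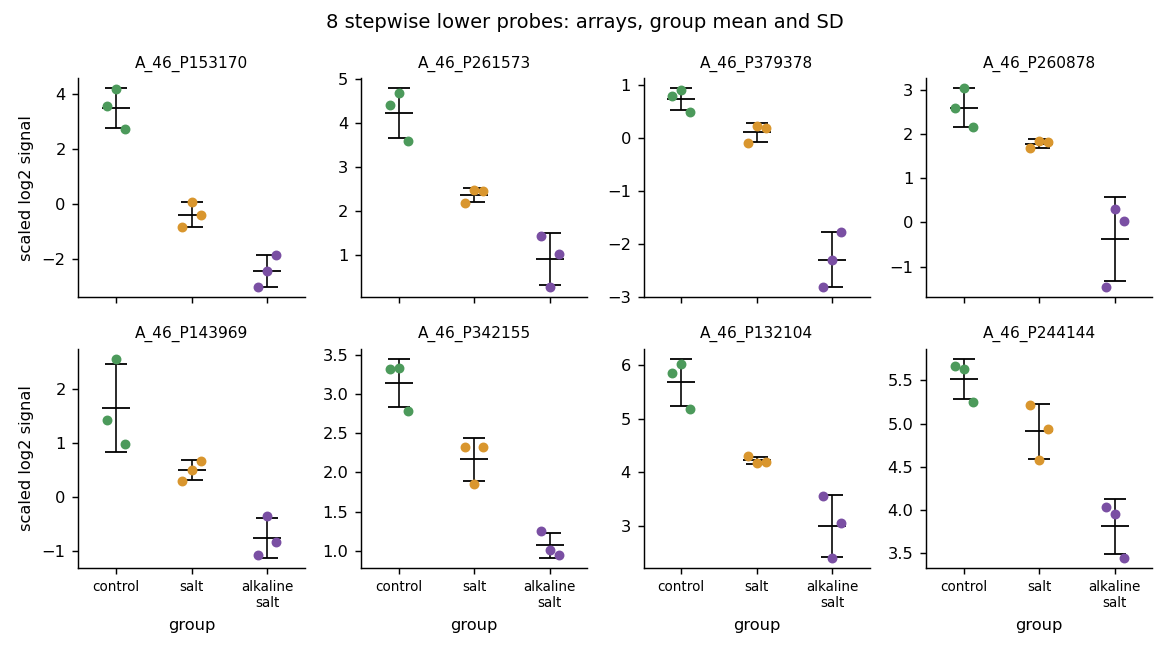
Scaled log2 signal on the y axis for 8 of the 65 probes, with a coloured point for each of the 3 plants of a group, a horizontal mark for the group mean and bars of 1 SD. The y axes differ between panels. A_46_P153170 drops more from control to salt than from salt to alkaline salt, while A_46_P379378 and A_46_P260878 drop more from salt to alkaline salt than from control to salt.

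On the 3 alkaline salt arrays, 50 of the 65 probes stayed well above background throughout, 5 did so on 2 arrays, 6 on 1 array and 4 on none. For the 50 measured throughout, the median steps were −0.70 and −1.10. A low alkaline salt signal is itself what puts a probe among the other 15, so their steps are not set against those of the 50.

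The 4 probes above background in no alkaline salt plant were A_46_P052671 (DY020172), A_46_P036216 (EE400512), A_46_P364035 (TC102858) and A_46_P005866 (M35599). They are named because they are so few, after their values had been seen. For these the alkaline step is a lower bound, in which an alkaline salt plant counts at the lowest signal that was well above background on its array, or at its own signal where that was higher.

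A_46_P052671 was at 0.79, 0.35 and −0.27 in control plants 1 to 3 and at −1.26, −0.70 and −0.50 in salt plants, and was at least 3.59-fold lower in alkaline salt than in salt plants. A_46_P364035 was at 0.31, −0.17 and 1.46 in control plants and at −0.81, −0.51 and −0.97 in salt plants, and was at least 3.33-fold lower in alkaline salt. A_46_P036216 and A_46_P005866 were at least 3.12-fold and 2.56-fold lower in alkaline salt than in salt plants. All 4 had been measured on every salt array at signals 2.16-fold to 2.46-fold lower than in controls. Against controls, the alkaline salt signal was at least 5.79-fold to 8.19-fold lower. These folds and bounds hold for the processed signal only. With normexp the salt steps of the 4 probes shrank to between −0.74 and −0.62, and the alkaline steps were −1.07 for A_46_P052671, −0.74 for A_46_P364035, −0.78 for A_46_P036216 and −0.68 for A_46_P005866, all smaller than the bounds against salt plants.

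At the other end, the limits of the choice passed through a dense range of values. Of the 65 probes, 19 had a smaller step within 0.1 of the limit of 0.5, in deposited log2 values. The nearest inside were A_46_P037296 (ES904385), with steps of 0.502 and 0.527, and A_46_P253194 (EV177129), with 0.506 and 0.833. The nearest outside were A_46_P311250 (TC69045), with 0.4997 and 0.745, and A_46_P278603 (EE474452), with 0.4995 and 0.752. In all, 121 eligible probes had groups in the same order without overlap and failed on the size of a step alone. On the scaled signal the alkaline step of A_46_P037296 was −0.49 (SE 0.21), the only step of the 65 probes below 0.5 in size there.

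Other probes of the same transcripts were not part of the choice, though they report on the same RNA. Of the 64 identifiers, 7 had more than 1 probe on the array, and besides the 65 there were 7 such probes. Of these, 4 were above background on no array, so their steps are not read. They belong to EV165851, EV100612 and EV169672. Their scaled control means lay between −4.69 and −4.52, against 5.45, 3.19 and 1.65 for the chosen probes of these identifiers. Probes of these 3 identifiers thus differ on whether a signal was detected, and the reason was not tested. The remaining 3 were tested probes, and all 3 were lower in salt than in control and lower in alkaline salt than in salt, as were 25% of all tested probes. With so few probes this is a description.

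In TA21714_3708, the other probe, A_46_P137014, gave scaled means of −1.30 ± 0.10 (SD, n = 3) for control, −1.95 ± 0.68 for salt and −2.89 ± 0.16 for alkaline salt, with differences of −0.65 and −0.95. The chosen probe, A_46_P348955, gave −0.70 and −1.03. A_46_P137014 was not eligible, since it was above background on 2 of 3 salt arrays, and it was so on 1 alkaline salt array.

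The other probe of ES904385, A_46_P220099, had differences of −0.49 and −0.55, close to the −0.50 and −0.49 of A_46_P037296. The other probe of TA25955_3708, A_46_P222254, had −0.51 and −0.30, against −0.83 and −0.81 for the chosen probe A_46_P224159. Both were above background on all 9 arrays and had lower means at each step, but each fell short of the 0.5 limit at 1 step in the deposited values.

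Control plants were not alike across the 65 probes. Control replicate 3 gave the lowest control signal for 45 of the 65, control replicate 2 for 15 and control replicate 1 for 5. Over eligible probes the shares were 38.4%, 40.3% and 21.3% in the same order, and the difference was not tested. The median deviation from the control mean was 0.12, 0.11 and −0.28 for control replicates 1 to 3, against 0.06, −0.05 and −0.01 over eligible probes.

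In salt plants the median deviations were 0.05, −0.03 and 0.00 for replicates 1 to 3, and in alkaline salt plants 0.14, 0.01 and −0.12. Among control plants the median SD of the 65 probes was 0.37, among salt plants 0.19 and among alkaline salt plants 0.38, against 0.30, 0.24 and 0.25 over eligible probes. The choice asked for gaps on both sides of the salt plants, which bears on these spreads.

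**Figure D3:**
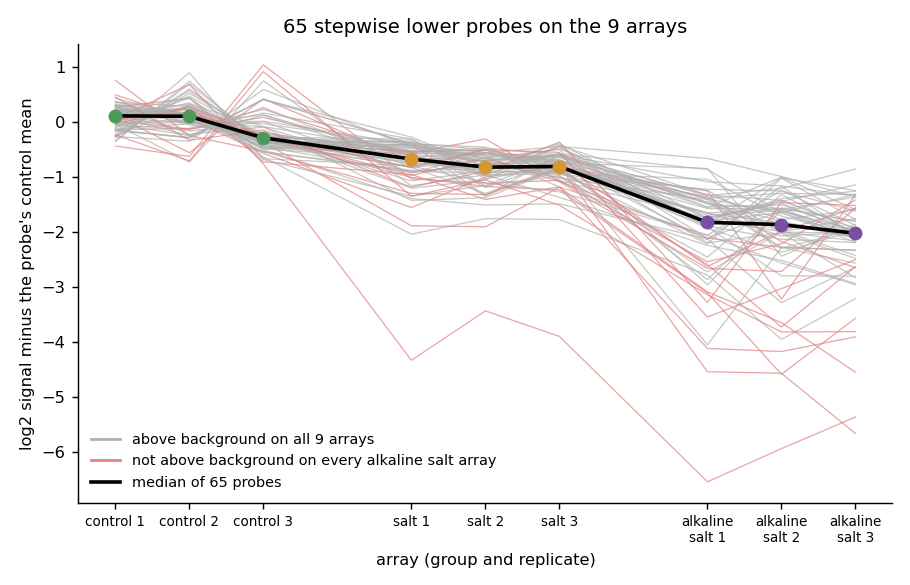
Log2 signal of the 65 probes minus each probe's control mean on the y axis, over the 9 arrays on the x axis, with 1 thin line per probe and the median in black. Red lines are the 15 probes not above background on every alkaline salt array. The median line is lower in control replicate 3 than in control replicates 1 and 2, and drops further between salt and alkaline salt than between control and salt.

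Each of the 3 slides held 1 array of every group, so the steps can be read within a slide. The median salt step of the 65 probes was −0.77 on slide 1, −0.95 on slide 2 and −0.46 on slide 3, which held control replicate 3. It reached at least 0.5 in size for 47, 55 and 31 of the 65 probes. The median alkaline step was −1.19, −0.93 and −1.30, and it reached 0.5 in size for 59, 57 and 58 probes. Only on slide 1 did any step run the other way, with 2 probes at most 0.04 higher in alkaline salt than in salt. Over eligible probes the median within-slide difference stayed between −0.06 and 0.02 for both steps.

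**Figure D4:**
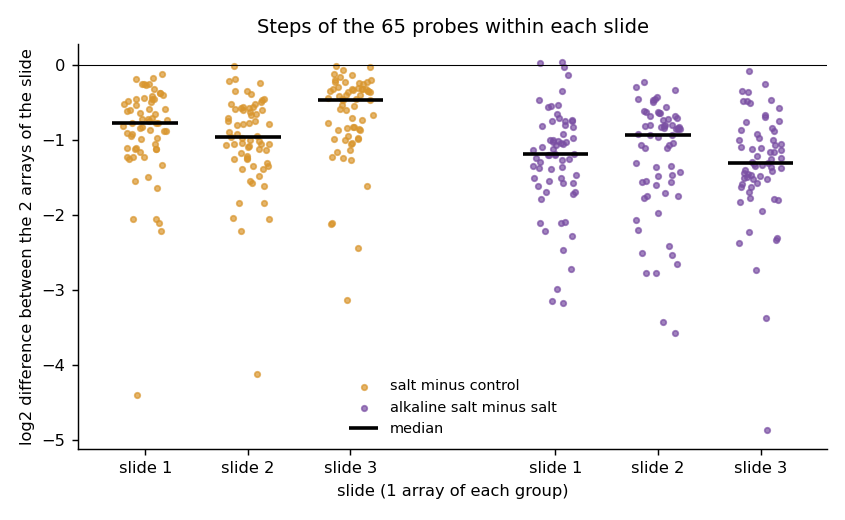
Log2 difference between 2 arrays of the same slide on the y axis, with 1 point for each of the 65 probes and a black bar for the median. The salt step is smallest on slide 3, with a median of −0.46, while the alkaline step has medians between −1.30 and −0.93.

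The number of probes meeting the conditions depended most on that same plant. Without control replicate 3, 291 probes met them, of which 60 were among the 65. Without any other single array the number lay between 68 and 132 for control and salt arrays and between 67 and 97 for alkaline salt arrays, with 48 to 65 of the 65 retained. Groups of 2 arrays overlap less easily than groups of 3. The mirrored order, higher at both steps, also grew without control replicate 3, from 36 to 188 probes, and held 35 to 73 probes without any other array. Which other property of the plant or array moves with this was not tested.

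**Figure D5:**
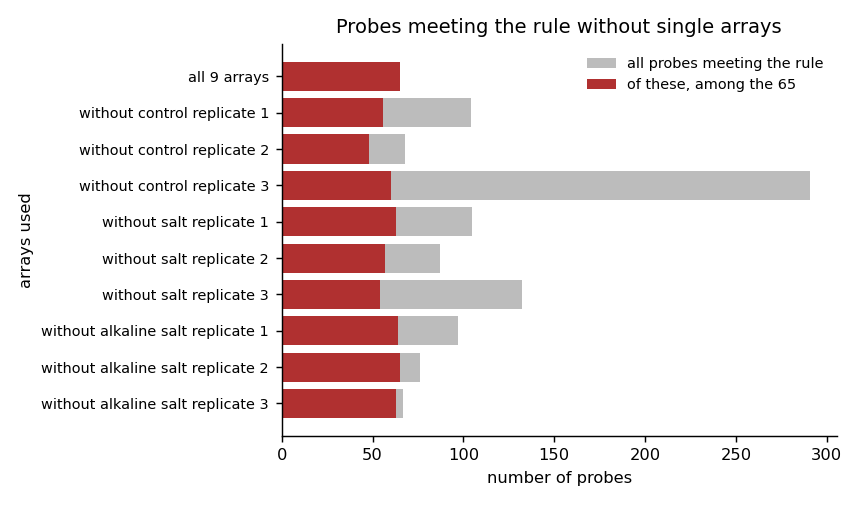
Number of probes that meet the conditions on the x axis, for all 9 arrays and with each array left out. Red is the part that is among the 65. Leaving out control replicate 3 gives 291 probes, and every other array gives 132 or fewer.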

How the data were processed

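Leaf RNA of 9 plants was hybridised to 1-colour Cy3 arrays, grouped and numbered by their titles. The deposited scanner files hold linear intensity from Agilent Feature Extraction 10.1.1.1, background-subtracted and detrended within each array, per the file headers; version 10.5.1.1 is the one named in the submitters' processing notes. Flags for spots well above background come from the same program, as deposited. Scan dates in the headers precede the growing months in the labels, for which no source used here gives a reason. The deposited value table holds log2 values whose making no source used here states. They lie within 0.0891 of quantile-normalised log2 processed intensity, so scale and normalisation are inferred; they are not centred per probe.

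Control spots (1417) were left out, 71 outlier spot values were set to missing, and repeated spots were averaged. No gene spot was saturated. The 65 probes were found in the deposited values, and everything else used log2 processed intensity minus the array's 75th percentile. Group means were fitted to 9 arrays with limma 3.58.1 in R 4.3.3, without covariates, two-sided. The code of the fit was run on simulated independent values with known shifts in the salt group. That run held no slide or array effect, so it does not bear on how stable the calls are. Precision is limited by 3 arrays per group. Alternatives covered scaling, background correction, filters, the slide, single arrays and the limits of the choice.

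Probes named are the 2 with the widest salt step, the 2 with the widest alkaline step (measured in every group), the 2 most even, the 2 with the strongest control signal and the 2 on either side of the limit, besides other probes of the same transcripts and 4 unmeasured in alkaline salt. The probes and rules were chosen with earlier results of these data known. Gene and cell type lists could not be applied, as the files name no genes. Figures were drawn with matplotlib 3.10.9.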

Additional observations from a re-analysis of the deposited data

How the results depend on the processing

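With the conditions applied to other values, 74 probes met them on the 75th percentile scaling (58 of the 65), 66 after quantile normalisation (64), 57 with the percentile over detected probes (53), a scaling chosen after seeing the data, 36 with normexp (32) and 16 with median scaling (10). A limit of 0.3 gave 139 probes, a limit of 1 gave 12, and 217 met it with overlap allowed. Detection on all 9 arrays left 50. Leaving out single arrays gave 67 to 291 probes. The median salt step stayed between −0.82 and −0.71 without single arrays and the median alkaline step between −1.25 and −1.05, and normexp gave a median alkaline step of −0.78. For 16 named probes of the 65, neither step changed sign under any of 14 alternatives. A_46_P007431 was not followed. With normexp the salt step became the larger one in A_46_P143969 (−0.89 and −0.71) and, narrowly, in A_46_P364035 (−0.745 and −0.743). In the other named probes that were followed, the larger step stayed the same with normexp. Other alternatives could change it. Without alkaline salt replicate 1 the alkaline step was −1.50 in A_46_P132104 and −0.67 in A_46_P037296. Their salt steps, fitted with all 9 arrays, were −1.46 and −0.50. For the 65 as a set, which step was larger with normexp was not counted.

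From control to salt, the calls of lower probes (4, with 1 of the 65) were 39 with median scaling and 8 with quantile normalisation or the deposited values, each with 1 of the 65. They were 1 without a filter, with probes above background on all 9 arrays (A_46_P153170 not among them), with the percentile over detected probes and at an adjusted p under 0.01, each with 0 of the 65; fitting only the 2 groups also gave 0 of the 65. Without single arrays they were 1 to 15, with 0 to 1 of the 65. A_46_P153170, the 1 probe called, was lost without control replicate 1 or 2, salt replicate 1 or 3, or any alkaline salt array.

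From salt to alkaline salt, the 1288 calls (43 of the 65) became 465 (9) with median scaling, 355 (12) without a filter and 287 (11) at 0.01, and 469 to 1448 (17 to 46) without single arrays. From control to alkaline salt, the 1755 calls became 710 with median scaling, 681 without a filter and 573 at 0.01, and 810 to 2105 without single arrays. The range of 61 to 65 of the 65 holds for leaving out single arrays only. At 0.01 not all of the 65 were called, as the limma adjusted p reached 0.0314 in A_46_P066001. How many of the 65 were called with median scaling or without a filter is not given here. A stricter threshold lowers the counts by construction. With fewer or more probes tested, both the adjustment and the estimate of spread that limma shares across probes changed. Their parts were not tested, and neither was the cause for the other settings.

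Same-numbered arrays lay on 1 slide, and the labels do not tie their plants to each other. The correlation of their deviations from group means ran from −0.14 to 0.29; it exceeded 0.1 in 1 of 9 pairs, and 3 of 9 arrays were closest to their own number. With the replicate block, limma called 0 probes lower from control to salt (668, with 52 of the 65, at an unadjusted p under 0.05, a contrast the choice used), 1161 (41) from salt to alkaline salt and 1628 (65) from control to alkaline salt.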

Other observations

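The 65 probes were spread over the array surface. By rows, 11, 24, 13 and 17 of them lay in 4 equal bands of rows from top to bottom, where eligible probes had 23.1%, 25.8%, 26.7% and 24.3%. By columns, 38 lay on the left and 27 on the right, with eligible probes divided 49.9% to 50.1%. Neighbouring probes on the array were not compared.

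Among orders in which salt and alkaline salt moved in opposite directions, leaving out control replicate 3 changed the counts less than it changed the stepwise orders. Probes lower in salt and higher again in alkaline salt went from 114 to 155, and those higher in salt and lower in alkaline salt from 110 to 200. Without salt replicate 1 these 2 counts were 273 and 235, the highest without any single array. All 4 orders share the salt arrays in both steps, and the differences between their counts were not tested.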
